A study of Mus musculus with 16 samples.

Results

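The genes described here are 40 genes of the cell cycle and of DNA replication, measured by RNA-seq in mouse plantaris, a plantar flexor muscle of the hindlimb. They were chosen by name: the rows of the deposited count table whose symbol was one of the 40, out of 17230 genes in the table, and all 40 passed the filter on low counts that left 17212 genes for testing. Of these, 13 act in S phase (DNA synthesis), 24 in mitosis and the division of the cytoplasm, and 3 (Mki67, Ccna2 and Foxm1) in both. The design crossed genotype with surgery in mice aged 9 to 12 weeks. Wild Type (WT) and TRIM28 mKO (KO) muscles, the latter labelled as a Trim28 knockout, were taken after a sham operation (Sham) or after myotenectomy (MTE), a surgery that overloads the muscle. Of 15 libraries in the count table, 3 were KO Sham and 4 each were WT Sham, WT MTE and KO MTE. The sources used here do not give the cells in which Trim28 was deleted, the driver of the deletion or the time between surgery and harvest. No label ties the libraries of a group to different animals, and p-values therefore cover only the spread among these samples, which may be technical.

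A dividing cell first loads the MCM helicase onto its DNA with the help of CDC6, then copies the DNA with nucleotides made by ribonucleotide reductase, thymidylate synthase and thymidine kinase, and with polymerases held in place by the PCNA clamp. CDK1 with its B cyclins then drives mitosis, in which kinesins build the spindle, kinetochore proteins attach the chromosomes and cytokinesis proteins part the daughter cells. S phase genes are classic targets of the E2F factors, whereas many mitosis genes carry a cell cycle genes homology region (CHR) and CCAAT boxes near their start. Muscle fibre nuclei have left the cell cycle, but satellite cells (the muscle stem cells), fibroblasts, endothelial cells and immune cells of the muscle can divide.

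Total counts per library ran from 21081033 to 69187915. Trim28 lay at 27.8 to 49.0 CPM (counts scaled to the library's total) in WT Sham and 5.39 to 12.7 CPM in KO Sham, and at 35.3 to 60.9 CPM in WT MTE and 18.0 to 30.3 CPM in KO MTE, so every KO library was below every WT library of the same surgery. A pair of libraries stood apart from their groups. The summed level of 14 macrophage markers was 3611 CPM in WT Sham 1 against 308.2 to 417.5 CPM in the other WT Sham libraries, and mitochondrially encoded genes took 20.5% of counts in KO Sham column 3 against 6.21% to 14.4% in all other libraries. All 8 skeletal muscle fibre markers were detected, and their sum lay between 30380 and 76000 CPM.

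In wild-type muscle, overload raised most of the 40 genes. Of the 40 members, 32 were higher in WT MTE than in WT Sham at an adjusted p under 0.05 in edgeR's quasi-likelihood test and 0 were lower, where 14.1% of all genes tested were called higher and 11.2% lower. By class, 22 of 24 mitosis members, 8 of 13 S phase members and 2 of 3 members of both phases rose. The median log2 fold change was 1.96 over the mitosis members, 1.13 over the S phase members and 0.04 over all genes tested. For 34 of the 40, every MTE library lay above every Sham library (13.7% of all genes did so). Such separation always gives 0.0286, the smallest p that an exact two-sided permutation test with 70 arrangements can give. That p therefore restates the count for these 34 and adds nothing to it. In bulk tissue, more cells of a dividing type and more RNA of these genes per cell cannot be told apart.

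Levels of some other cells' markers moved with this comparison. The summed level of 12 fibroblast and fibro-adipogenic progenitor markers was 1930 to 2808 CPM in WT Sham and 5758 to 14830 CPM in WT MTE, with 6 of the 12 called higher. The macrophage sum was 308.2 to 3611 CPM in WT Sham and 1403 to 1806 CPM in WT MTE. These groups overlapped, since WT Sham 1 was at 3611 CPM, and 2 of 14 markers were called higher. The sum of 12 satellite cell and myoblast markers overlapped as well, at 127 to 248.9 CPM in WT Sham and 195.3 to 315.8 CPM in WT MTE. Of these 12, 3 were called higher. Over all genes tested, 14.1% were called higher and 11.2% lower. The 8 fibre markers summed to 66130 to 76000 CPM in WT Sham and 30380 to 46680 CPM in WT MTE, with 5 of 8 called lower. The 10 endothelial markers also overlapped between the groups, at 402.9 to 426.6 and 394.3 to 549.1 CPM, with 1 called higher. None of these markers was at 0 in every library of a group. The part of these cells in the rise of the cell cycle genes was not tested.

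**Figure D1:**
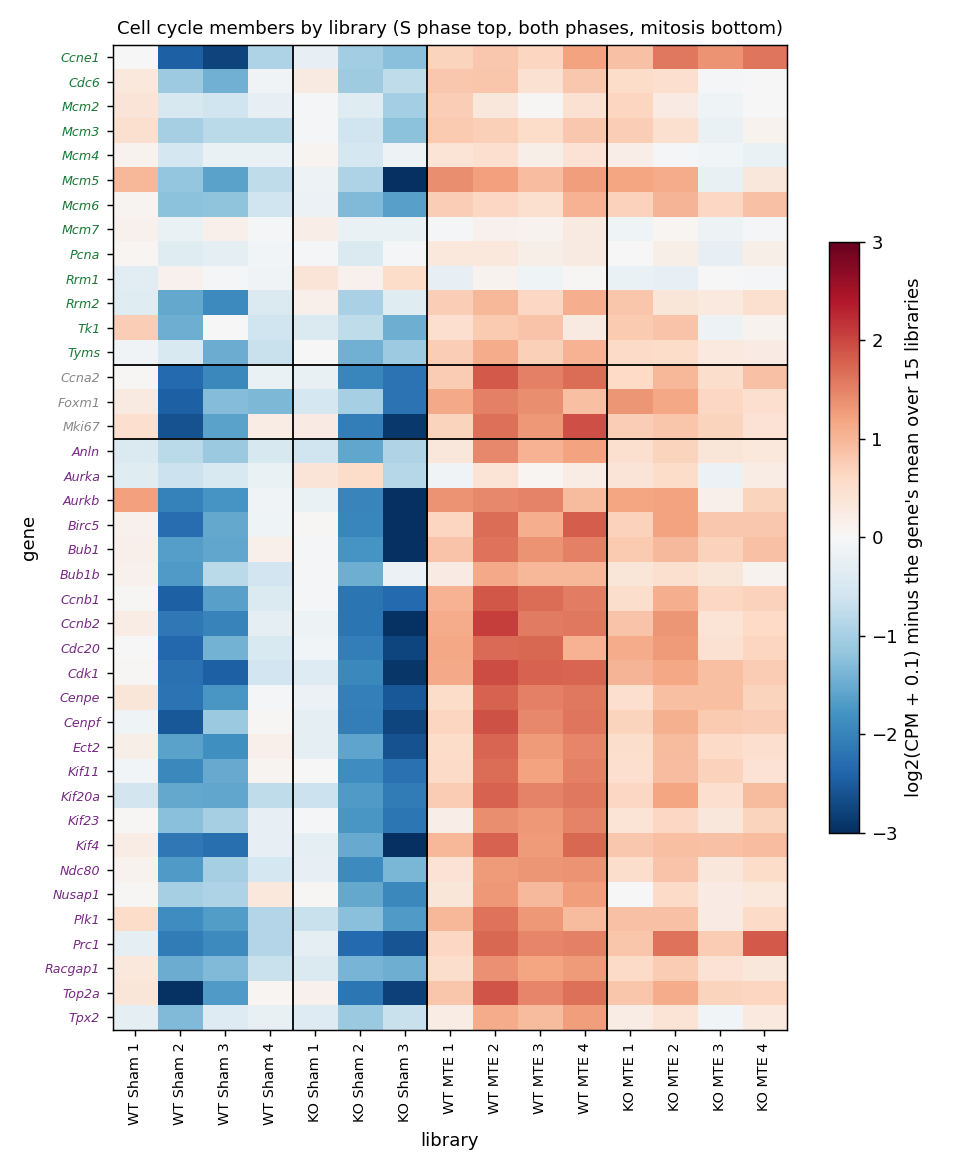
Heatmap of the 40 genes (rows, S phase at the top, then both phases, then mitosis) in 15 libraries (columns). Colour gives log2(CPM + 0.1) minus the gene's mean over the 15 libraries. The MTE libraries are above the mean for most genes, WT Sham 1, WT Sham 4 and KO Sham column 1 are close to it, and Rrm1 and Mcm7 stay near it in all columns.

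Among the S phase genes, those that make nucleotides split. Rrm2 (ENSMUSG00000020649, chromosome 12, 24708241 to 24714146, GRCm38) encodes the small subunit of ribonucleotide reductase. Rrm2 lay at 3.62, 1.55, 1.17 and 3.43 CPM in WT Sham 1 to 4 and at 7.91, 9.52, 7.30 and 10.2 CPM in WT MTE 1 to 4. In KO muscle Rrm2 lay at 5.24, 2.35 and 3.61 CPM in Sham columns 1 to 3 and at 8.41, 6.07, 5.80 and 6.63 CPM in MTE 1 to 4. Sham and MTE did not overlap in either genotype. The rise was 3.54-fold in WT (log2 fold change 1.82, SE 0.34, adjusted p = 0.00156), while in KO the log2 fold change was 0.84 (SE 0.36, adjusted p = 0.0944). Rrm1, the large subunit of the same enzyme (ENSMUSG00000030978, chromosome 7, 102441695 to 102469771), lay at 39.4, 54.3, 47.9 and 46.4 CPM in WT Sham 1 to 4 and at 41.9, 53.8, 45.8 and 51.1 CPM in WT MTE 1 to 4. The WT groups overlapped, with a log2 fold change of 0.03 (SE 0.13, adjusted p = 0.873) whose sign changed with several settings. In KO, Rrm1 was at 65.0, 54.3 and 72.7 CPM in Sham columns 1 to 3 and at 43.4, 42.3, 50.4 and 48.6 CPM in MTE 1 to 4. Here every MTE library was below every Sham library, and Rrm1 was the only member called lower in any comparison (log2 fold change -0.47, SE 0.14, adjusted p = 0.0238).

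Thymidylate synthase, which makes the thymine nucleotide, is encoded by Tyms (ENSMUSG00000025747, chromosome 5, 30058202 to 30073617). Tyms lay at 3.14, 2.42, 1.13 and 2.08 CPM in WT Sham 1 to 4 and at 5.72, 7.42, 5.59 and 7.08 CPM in WT MTE 1 to 4. In KO it lay at 3.34, 1.19 and 1.53 CPM in Sham columns 1 to 3 and at 5.05, 4.97, 4.14 and 4.02 CPM in MTE 1 to 4. All MTE libraries were above all Sham libraries, and Tyms rose 2.92-fold in WT (log2 fold change 1.55, SE 0.32, adjusted p = 0.00319) and 2.22-fold in KO (adjusted p = 0.0282). Thymidine kinase (Tk1), which salvages thymidine, had a log2 fold change of 0.76 in WT, where the groups overlapped (adjusted p = 0.190), and rose 2.5-fold in KO (log2 fold change 1.32, adjusted p = 0.0457).

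The 6 subunits of the MCM helicase, which work as 1 complex, did not all pass the test. Mcm6 (ENSMUSG00000026355, chromosome 1, 128331590 to 128359664) lay at 19.4, 7.77, 7.84 and 11.9 CPM in WT Sham 1 to 4 and at 30.4, 28.2, 25.7 and 37.9 CPM in WT MTE 1 to 4. In KO it lay at 16.1, 7.26 and 5.82 CPM in Sham columns 1 to 3 and at 29.5, 37.4, 28.1 and 33.5 CPM in MTE 1 to 4. No MTE library of Mcm6 fell into the Sham range, and it rose 2.60-fold in WT (log2 fold change 1.38, SE 0.32, adjusted p = 0.00631) and 3.28-fold in KO (log2 fold change 1.71, SE 0.36, adjusted p = 0.00476). Mcm2 (ENSMUSG00000002870, chromosome 6, 88883474 to 88898780) lay at 7.39, 4.06, 3.73 and 4.75 CPM in WT Sham 1 to 4 and at 9.45, 7.25, 5.81 and 7.84 CPM in WT MTE 1 to 4. In KO it lay at 5.55, 4.35 and 2.76 CPM in Sham columns 1 to 3 and at 8.92, 6.77, 5.15 and 5.64 CPM in MTE 1 to 4. WT Sham 1 was above WT MTE 2 and 3, the KO groups overlapped as well, and Mcm2 was not called in WT (log2 fold change 0.60, SE 0.27, adjusted p = 0.117) or in KO (0.64, adjusted p = 0.119). Mcm3 (log2 fold change 1.13, adjusted p = 0.0228) and Mcm4 (0.58, adjusted p = 0.0182) rose in WT. Mcm5 was at 1.48 (adjusted p = 0.0911) and Mcm7 at 0.10 (adjusted p = 0.622), with overlapping groups for both. Mcm7 shares exon sequence with Cops6, Ap4m1 and a pair of microRNA genes, and its estimated counts were not whole numbers, so its reads may be split between genes.

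Pcna (ENSMUSG00000027342, chromosome 2, 132249162 to 132253314), the sliding clamp of the replication fork, had a small response with little spread. It lay at 23.3, 17.2, 18.5 and 20.8 CPM in WT Sham 1 to 4 and at 27.7, 27.5, 25.2 and 26.9 CPM in WT MTE 1 to 4. In KO, Pcna was at 21.4, 16.3 and 21.7 CPM in Sham columns 1 to 3 and at 22.2, 25.3, 18.7 and 24.97 CPM in MTE 1 to 4. The WT groups did not overlap and the KO groups did, with a 1.34-fold rise in WT (log2 fold change 0.43, SE 0.14, adjusted p = 0.0338) and a log2 fold change of 0.20 in KO (SE 0.15, adjusted p = 0.311). The helicase loader Cdc6 rose with a log2 fold change of 1.20 in WT (adjusted p = 0.0383). Cyclin E1 (Ccne1), which starts S phase with CDK2, gave the highest log2 fold change of the S phase members in both genotypes, 2.10 in WT (SE 0.53, adjusted p = 0.0104) and 2.28 in KO (SE 0.59, adjusted p = 0.0127).

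**Figure D2:**
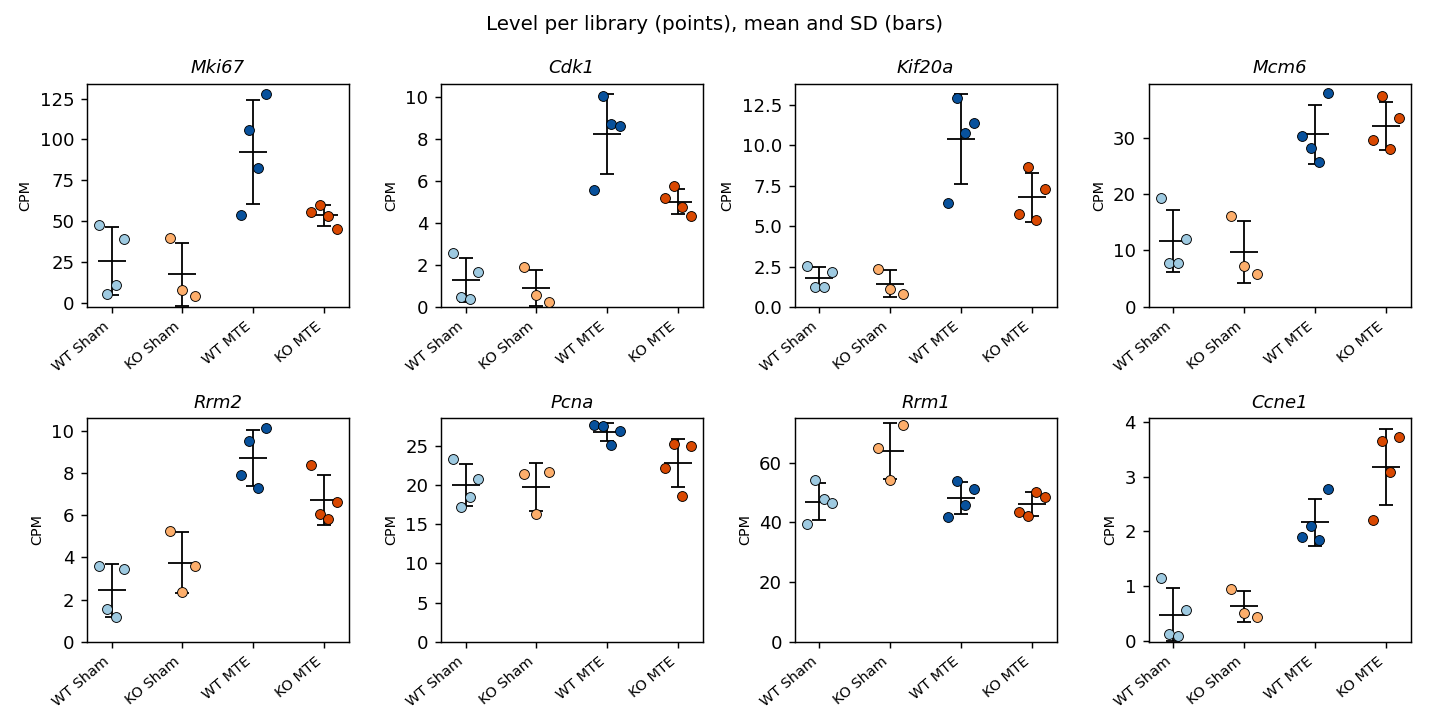
CPM of 8 genes in each library (points, by group), with the group mean and SD (bars), n = 4 except KO Sham (n = 3). Mki67, Cdk1, Kif20a and Rrm2 lie higher in both MTE groups, Mcm6 and Ccne1 are as high in KO MTE as in WT MTE, and Rrm1 has its highest values in KO Sham (54.3 to 72.7 CPM).

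Among the mitosis genes, the kinases and cyclins that start and run mitosis are described first. Cdk1 (ENSMUSG00000019942, chromosome 10, 69335146 to 69352938) is the mitotic kinase. Its level was 2.58, 0.451, 0.377 and 1.64 CPM in WT Sham 1 to 4 and 5.58, 10.03, 8.72 and 8.60 CPM in WT MTE 1 to 4. In KO, Cdk1 was at 1.88, 0.582 and 0.245 CPM in Sham columns 1 to 3 and at 5.20, 5.73, 4.75 and 4.33 CPM in MTE 1 to 4. WT MTE 1 was the lowest of the WT MTE libraries but still above WT Sham 1, and Cdk1 rose 6.39-fold in WT (log2 fold change 2.68, SE 0.57, adjusted p = 0.00355), the highest value of the 40, and 5.21-fold in KO (adjusted p = 0.0148). Its partners Ccnb1 and Ccnb2 rose with log2 fold changes of 2.44 and 2.39 in WT, and Plk1, a kinase that acts from mitotic entry to exit, with 2.06. The spindle pole kinase Aurka (0.58, adjusted p = 0.132) and Aurkb, the kinase of the chromosomal passenger complex (1.45, adjusted p = 0.155), were not called in WT. Birc5 (survivin), of the same complex as Aurkb, rose with a log2 fold change of 2.11.

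Spindle and chromosome genes rose in WT. Tpx2 (ENSMUSG00000027469, chromosome 2, 152847964 to 152895321), an activator of Aurora A at the spindle, lay at 5.64, 2.68, 5.16 and 5.81 CPM in WT Sham 1 to 4 and at 8.02, 14.97, 13.3 and 16.4 CPM in WT MTE 1 to 4. In KO, Tpx2 was at 5.22, 3.11 and 4.23 CPM in Sham columns 1 to 3 and at 7.996, 9.04, 6.39 and 8.40 CPM in MTE 1 to 4. The groups did not overlap in either genotype, and Tpx2 rose 2.73-fold in WT (log2 fold change 1.45, SE 0.27, adjusted p = 0.00158) and 1.90-fold in KO (adjusted p = 0.0330). Top2a (ENSMUSG00000020914, chromosome 11, 98992943 to 99024189), the topoisomerase that untangles replicated chromosomes, lay at 18.9, 1.80, 4.49 and 15.4 CPM in WT Sham 1 to 4 and at 26.5, 54.8, 40.7 and 46.8 CPM in WT MTE 1 to 4. In KO it lay at 16.2, 3.24 and 2.02 CPM in Sham columns 1 to 3 and at 26.4, 32.2, 23.6 and 23.3 CPM in MTE 1 to 4. WT Sham 1 and 4 and KO Sham column 1 were far above the rest of their groups, and the rise was called in WT (4.14-fold, log2 fold change 2.05, SE 0.65, adjusted p = 0.0329) but not in KO (1.85, SE 0.72, adjusted p = 0.0708). The spindle motor Kif11 (log2 fold change 1.94), the chromosome motor Kif4 (2.23) and the microtubule binder Nusap1 (1.31) also rose in WT. So did the kinetochore genes Cenpe (1.98), Cenpf (2.12) and Ndc80 (1.85), the spindle checkpoint genes Bub1 (1.91) and Bub1b (1.49), and Cdc20 (2.35), the activator of the anaphase-promoting complex, with adjusted p-values from 0.00569 to 0.0331 for these 9 genes.

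The 6 genes of cytokinesis all rose in WT. Kif20a (ENSMUSG00000003779), a kinesin of the spindle midzone, lay at 2.53, 1.22, 1.22 and 2.17 CPM in WT Sham 1 to 4 and at 6.41, 12.9, 10.8 and 11.4 CPM in WT MTE 1 to 4. In KO, Kif20a was at 2.37, 1.09 and 0.796 CPM in Sham columns 1 to 3 and at 5.78, 8.67, 5.38 and 7.33 CPM in MTE 1 to 4. Sham and MTE were apart in both genotypes, and the rise was 5.77-fold in WT (log2 fold change 2.53, SE 0.35, adjusted p = 0.000229, the smallest of the 40) and 4.65-fold in KO (adjusted p = 0.00181). Anln (ENSMUSG00000036777, chromosome 9, 22332012 to 22389188), anillin, a scaffold of the contractile ring, lay at 6.30, 4.83, 3.86 and 6.10 CPM in WT Sham 1 to 4 and at 10.8, 23.2, 17.7 and 19.8 CPM in WT MTE 1 to 4. In KO it was at 5.62, 2.81 and 4.47 CPM in Sham columns 1 to 3 and at 11.8, 13.5, 10.9 and 10.6 CPM in MTE 1 to 4. Again no MTE library was in the Sham range, with a 3.38-fold rise in WT (log2 fold change 1.76, SE 0.25, adjusted p = 0.000279) and a 2.72-fold rise in KO (adjusted p = 0.00304). Prc1 (ENSMUSG00000038943, chromosome 7, 80294450 to 80316259), which bundles midzone microtubules, lay at 4.57, 1.26, 1.43 and 3.05 CPM in WT Sham 1 to 4 and at 8.76, 18.9, 15.9 and 16.4 CPM in WT MTE 1 to 4. In KO it was at 4.62, 1.04 and 0.858 CPM in Sham columns 1 to 3 and at 10.2, 17.9, 9.70 and 20.7 CPM in MTE 1 to 4. Prc1 rose 5.76-fold in WT (log2 fold change 2.53, SE 0.53, adjusted p = 0.00344) and 6.49-fold in KO (log2 fold change 2.70, SE 0.60, adjusted p = 0.00632), the highest value of the 40 in KO. The centralspindlin subunits Kif23 and Racgap1 and their partner Ect2, which activates RhoA at the cleavage site, had log2 fold changes of 1.73, 1.75 and 1.86 in WT.

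Of the 3 genes active in both phases, the cyclin A gene Ccna2 (log2 fold change 2.29, adjusted p = 0.00597) and Foxm1 (2.24, adjusted p = 0.00573), a transcription factor of mitosis genes, rose in WT. Mki67 (ENSMUSG00000031004, chromosome 7, 135689784 to 135716361) encodes Ki-67, the usual marker of dividing cells. It lay at 47.7, 5.35, 10.9 and 39.3 CPM in WT Sham 1 to 4 and at 53.6, 106, 82.8 and 128 CPM in WT MTE 1 to 4. In KO, Mki67 was at 39.7, 7.89 and 4.41 CPM in Sham columns 1 to 3 and at 55.5, 60.1, 53.2 and 45.0 CPM in MTE 1 to 4. Every MTE library was above every Sham library, but the Sham libraries differed among themselves by 8.91-fold in WT and 9.01-fold in KO. With that spread Mki67 was not called in WT (log2 fold change 1.84, SE 0.66, adjusted p = 0.0551) or in KO (1.61, SE 0.73, adjusted p = 0.113).

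Exons of Mcm7, Tk1, Top2a, Plk1, Kif20a, Kif4, Nusap1, Prc1, Cdc20, Ccna2 and Foxm1 overlap exons of another annotated gene. The sources used here do not say whether the strand was used in counting, and their values may hold reads of that neighbour. Besides those of Mcm7, the estimated counts of Pcna and Ccnb1 were not whole numbers, so their reads may be split between genes as well.

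Promoters of the responding genes are shown because both classes rose together under overload but carry different sequence elements. RefSeq promoter windows of 300 bases, from 250 before to 50 after a gene's start on GRCm38.p6, were found for 34 of the 40 genes (37 windows). Motifs of 3 kinds were searched on both strands: CHR as TTTGAA, the CCAAT box as CCAAT, and E2F in any of 3 forms. The first E2F form was TTCCCGC. The next form was TTGGCGC, and the last was TTCGCGC. Matches of E2F may overlap one another. CHR was in 18 of 23 mitosis windows (78.3%) and in 1 of 13 S phase windows (7.69%, that of Mcm2), against 17.9% of all 32851 windows of the table. The 23 mitosis windows belong to 21 genes. Prc1 and Ect2 each have overlapping windows, so the same matches of these genes are counted more than once. A CCAAT box was in 82.6% of mitosis and 69.2% of S phase windows against 37.4% of all. E2F was in 53.8% of S phase and 17.4% of mitosis windows against 8.07% of all. CHR with CCAAT stood in 69.6% of mitosis and 7.69% of S phase windows against 6.95% of all. With TTTAAA also counted as CHR, the shares were 91.3% for mitosis, 38.5% for S phase and 27.6% for all. These letters are matches and not measured binding sites. The 6 windows below are those of Cdk1, with the highest response in WT, Prc1 (the first of its windows), with the highest in KO, Racgap1, a cytokinesis gene with no E2F match, Mki67, Mcm6, an S phase gene that rose in both genotypes, and Rrm1, which did not rise. They are written 5′ to 3′ on the gene's strand, and capitals mark CHR, CCAAT and E2F matches.
Cdk1, chr10:69352863-69353162, minus strand: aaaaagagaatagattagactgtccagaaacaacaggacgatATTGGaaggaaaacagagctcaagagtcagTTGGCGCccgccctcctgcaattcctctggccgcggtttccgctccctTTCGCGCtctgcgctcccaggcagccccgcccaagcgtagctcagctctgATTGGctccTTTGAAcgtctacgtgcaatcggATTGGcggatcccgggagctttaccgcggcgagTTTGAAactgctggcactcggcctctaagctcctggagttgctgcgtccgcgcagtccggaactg
Prc1, chr7:80294201-80294500, plus strand: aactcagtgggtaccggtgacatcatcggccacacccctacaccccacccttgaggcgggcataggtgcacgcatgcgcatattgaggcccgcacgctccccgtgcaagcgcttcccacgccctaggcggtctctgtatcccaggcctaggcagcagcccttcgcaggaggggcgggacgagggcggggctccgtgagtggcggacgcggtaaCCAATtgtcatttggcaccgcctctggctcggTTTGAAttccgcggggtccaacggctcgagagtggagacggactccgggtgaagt
Racgap1, chr15:99651607-99651906, minus strand: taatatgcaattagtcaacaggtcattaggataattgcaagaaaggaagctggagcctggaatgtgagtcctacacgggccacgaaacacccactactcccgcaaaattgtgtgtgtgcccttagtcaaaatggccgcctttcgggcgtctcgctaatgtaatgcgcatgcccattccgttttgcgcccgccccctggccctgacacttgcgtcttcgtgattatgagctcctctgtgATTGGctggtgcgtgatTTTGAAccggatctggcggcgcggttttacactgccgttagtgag
Mki67, chr7:135716330-135716629, minus strand: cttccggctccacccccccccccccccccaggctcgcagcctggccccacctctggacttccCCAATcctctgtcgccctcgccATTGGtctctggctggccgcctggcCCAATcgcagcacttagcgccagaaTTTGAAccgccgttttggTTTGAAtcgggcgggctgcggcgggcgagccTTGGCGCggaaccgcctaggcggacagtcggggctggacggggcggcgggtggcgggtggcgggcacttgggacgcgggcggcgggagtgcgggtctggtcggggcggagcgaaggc
Mcm6, chr1:128359656-128359955, minus strand: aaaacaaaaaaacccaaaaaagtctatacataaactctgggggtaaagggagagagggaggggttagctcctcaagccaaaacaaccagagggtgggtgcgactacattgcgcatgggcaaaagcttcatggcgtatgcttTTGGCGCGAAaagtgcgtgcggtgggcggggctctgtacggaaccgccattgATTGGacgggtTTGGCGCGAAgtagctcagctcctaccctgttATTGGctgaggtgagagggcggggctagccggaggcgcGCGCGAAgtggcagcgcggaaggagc
Rrm1, chr7:102441445-102441744, plus strand: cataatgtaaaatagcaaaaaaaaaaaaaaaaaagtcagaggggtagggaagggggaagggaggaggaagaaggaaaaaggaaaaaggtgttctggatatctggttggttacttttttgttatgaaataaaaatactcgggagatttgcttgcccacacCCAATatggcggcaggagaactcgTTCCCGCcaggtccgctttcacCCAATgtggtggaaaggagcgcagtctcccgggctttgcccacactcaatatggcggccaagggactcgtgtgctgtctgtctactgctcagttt
In Cdk1 a CHR began 15 bases before the start and 33 bases after a CCAAT box, and in Prc1 5 bases before the start and 32 bases after a CCAAT box. Mcm6 held 5 E2F matches and no CHR. Rrm1 held 1 E2F match and 2 CCAAT boxes, so matches of the same kinds stood in a window of a gene that rose and of one that did not.

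The wider pathway was described with lists of genes outside the 40. Of 45 other DNA replication genes, 20 rose and 1 fell in WT, with a median log2 fold change of 0.57. Over all genes tested, 14.1% were called higher in WT overload and 11.2% lower. Hells, a chromatin remodeller (log2 fold change 1.57, adjusted p = 0.00241), and Prim1, the primase subunit that starts new strands (0.89, adjusted p = 0.00149), rose. Rpa1, the large subunit of the single-strand binding protein, fell from 76.6 ± 8.03 to 48.0 ± 2.51 CPM (SD, n = 4; log2 fold change -0.67, adjusted p = 0.000494) and also fell in KO (-0.47, adjusted p = 0.00910). Of 57 other mitosis genes, 44 rose and 1 fell in WT, with a median of 1.77. Cks2, a CDK-binding subunit, rose from 0.449 ± 0.237 to 2.68 ± 0.788 CPM (SD, n = 4; 5.84-fold, adjusted p = 0.000197), and Ncapg2, a condensin subunit, rose 2.82-fold (adjusted p = 0.000323). The gene that fell was Pttg1, securin, the inhibitor of sister chromatid separation, at 39.9 ± 7.29 CPM in WT Sham and 17.6 ± 1.92 CPM in WT MTE (SD, n = 4; log2 fold change -1.18, adjusted p = 6.78e-05). It fell in KO as well (-1.07, adjusted p = 0.000414).

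Before S phase, cells pass G1 under the D cyclins. Of 12 G1 genes, 5 rose and 2 fell in WT, where 14.1% of all genes tested were called higher and 11.2% lower. Ccnd1 rose from 5.89 ± 2.57 to 19.2 ± 5.06 CPM (log2 fold change 1.70, adjusted p = 0.0109) and Ccnd2 from 20.3 ± 2.47 to 45.8 ± 12.9 CPM (1.18, adjusted p = 0.00145; SD, n = 4), while Ccnd3 was at 0.50 (adjusted p = 0.247). Cdk2, the partner of cyclin E, rose 1.69-fold and Myc, a growth transcription factor, 3.19-fold, and Cdk4 (log2 fold change 0.89), the partner of the D cyclins, was the fifth gene that rose. Tfdp2, a partner of E2F factors (-1.12), and Mycn (-1.61) fell. Of 20 inhibitors and quiescence genes, 4 rose and 3 fell. These counts are not far from the shares of all genes, so they are not read as a response of the list. The inhibitor of CDK4 and CDK6, Cdkn2b, rose 4.95-fold (log2 fold change 2.31, SE 0.43, adjusted p = 0.00152) from a low 0.276 ± 0.0632 CPM, and Gas1 rose 2.03-fold. The CDK inhibitor gene Cdkn1b fell in WT (log2 fold change -0.68, adjusted p = 0.0189) and in KO (-0.91, adjusted p = 0.00694), as did Rbl2, an Rb family repressor (-1.08 in WT and -1.33 in KO). Cdkn1a (0.55, adjusted p = 0.353) and Cdkn1c (0.54, adjusted p = 0.129) were not called in WT.

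The rise of mitosis genes was compared with that of S phase genes library by library. A class level is the mean of its members' log2 CPM (prior count 2), and since genes differ in length only its change between libraries is read. The S phase level was 2.86, 1.72, 1.68 and 2.23 in WT Sham 1 to 4 and 3.25, 3.33, 3.10 and 3.36 in WT MTE 1 to 4. The mitosis level was 1.76, -0.25, 0.16 and 1.37 in WT Sham 1 to 4 and 2.35, 3.26, 2.97 and 3.05 in WT MTE 1 to 4. Neither class overlapped between the surgeries, and the mean difference was 1.14 for S phase and 2.15 for mitosis. The S phase level minus the mitosis level was 1.10, 1.97, 1.52 and 0.85 in WT Sham 1 to 4 and 0.90, 0.07, 0.13 and 0.31 in WT MTE 1 to 4. WT MTE 1 had the highest of the 4 MTE values and lay within the range of Sham. The median log2 fold change of S phase members was below that of mitosis members by 0.83 in WT (-0.83) and by 1.08 in KO (-1.08), a description with no test. When CPM were summed over a class instead, the S phase difference was 0.595 in WT and 0.297 in KO, and the mitosis difference was 2.09 and 1.94. Such a sum gives most weight to genes with high levels. Rrm1, which did not rise in either genotype, held 47.0 of the mean S phase sum of 122.2 CPM in WT Sham and 64.0 of 134.5 CPM in KO Sham.

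**Figure D3:**
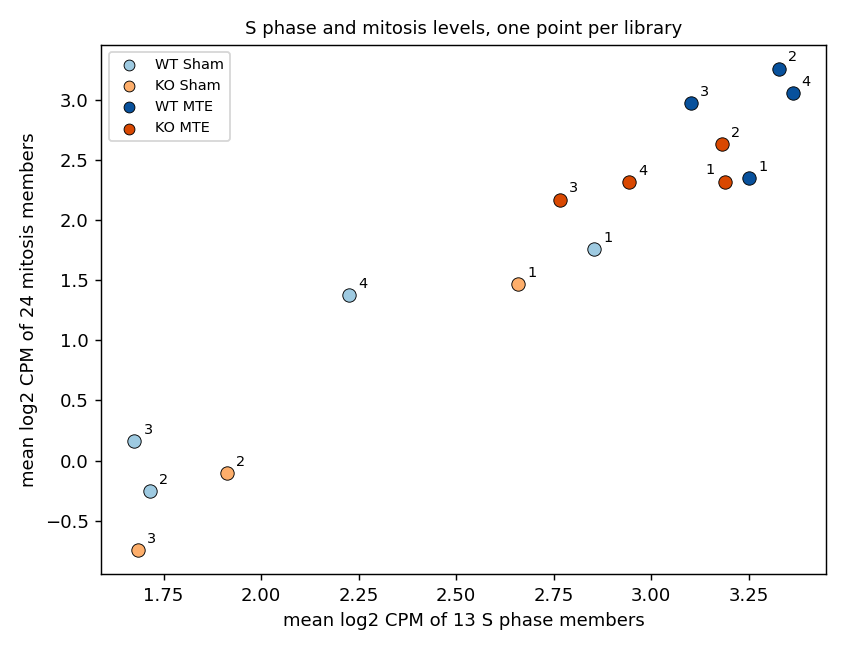
Mean log2 CPM of the 13 S phase members (x axis) and of the 24 mitosis members (y axis), 1 point per library with its number (column number in KO Sham). The MTE libraries lie at the upper right, and WT Sham 1, WT Sham 4 and KO Sham column 1 lie between them and the other 4 Sham libraries.

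The Sham libraries differed from one another in these genes by more than the MTE libraries did. For the mitosis members, the highest library of a group was above the lowest by a median of 4.43-fold in WT Sham and 5.20-fold in KO Sham (22 members with no library at 0), against 1.95-fold in WT MTE and 1.41-fold in KO MTE. The median SD of log2 CPM was 1.11 over mitosis members and 0.62 over S phase members in WT Sham, against 0.33 over all genes tested. WT Sham 1 was the highest of its group for 32 of the 40 genes, and KO Sham column 1 was the highest of its group for 37. The KO Sham mitosis levels were 1.46, -0.10 and -0.74 in columns 1 to 3. Aurkb and Bub1 had 0 counts in KO Sham column 3, which allows a level of up to 0.184 CPM (3 counts in that library, counting error only). Other low values rest on few counts too. Ccnb2, Plk1, Birc5 and Cdc20 had 2 counts each in KO Sham column 3, and Plk1 had 3 in WT Sham 2 and in WT Sham 3. The ratios of highest to lowest library in Sham therefore also hold counting error.

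Blood cell markers varied among the same libraries. Of 12 lymphocyte and neutrophil markers, 4 were in the table (Cd4, S100a8, S100a9 and Cxcr2). Their sum was 63.1, 12.2, 127 and 545 CPM in WT Sham 1 to 4 and 241, 26.1 and 7.72 CPM in KO Sham columns 1 to 3. It was 92.1, 16.9, 27.8 and 189 CPM in WT MTE 1 to 4 and 9.91 to 11.9 CPM in KO MTE. Most of the sum came from S100a8 and S100a9, at 182 and 355 CPM in WT Sham 4 and at 87.2 and 147 CPM in KO Sham column 1. The sum therefore says little about lymphocytes. WT Sham 4 and KO Sham column 1, with mitosis levels of 1.37 and 1.46, had the highest sums of their groups, while WT Sham 1, with 1.76, had the high macrophage sum. By contrast, WT Sham 3 had the second highest lymphocyte and neutrophil sum of WT Sham with a mitosis level of 0.16. Within WT MTE, WT MTE 1 had the second highest of these sums and the lowest mitosis level. The part of these cells in the spread was not tested.

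Overload raised the same classes in TRIM28 mKO muscle. Of the 40 members, 25 were higher in KO MTE than in KO Sham and 1 (Rrm1) was lower, where 13.2% of all genes tested were called higher and 12.7% lower. Mitosis members rose in 19 of 24 cases (median log2 fold change 1.93) and S phase members in 4 of 13 (median 0.84), the 4 being Tyms, Mcm6, Tk1 and Ccne1. Groups did not overlap for 30 members that were higher and 1 that was lower, against 19.9% and 16.2% of all genes. The uncalled mitosis members were Top2a, Aurka (log2 fold change 0.11), Aurkb (adjusted p = 0.0605), Bub1b (0.81, adjusted p = 0.142) and Nusap1 (1.19, adjusted p = 0.0660). Ccna2 and Foxm1 rose 3.84-fold and 4.27-fold. This count changed with single libraries. It was 26 with all 15, 28, 9 and 4 without KO Sham columns 1, 2 and 3, and 16, 9, 21 and 14 without KO MTE 1 to 4. The members' median log2 fold change was 1.68 with all 15 and between 1.44 and 2.55 in these fits. Leaving out a library also lowers the power of the test, most of all in KO Sham, the smallest group. Only Anln, Kif20a, Mcm6 and Prc1 were called in KO whichever of the 7 KO libraries was left out. In WT, where both groups had 4 libraries, 22 members were called whichever of the 8 WT libraries was left out.

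Marker levels also moved in KO. The fibroblast sum was 1236 to 2513 CPM in KO Sham and 7129 to 10830 CPM in KO MTE, with 5 of 12 markers called higher, and the macrophage sum was 157 to 351.3 and 1014 to 1143 CPM, with 9 of 14 called higher. The satellite cell and myoblast sum was 112.4 to 215.8 CPM in KO Sham and 284.2 to 490.4 CPM in KO MTE, with 4 of 12 called higher and 2 lower. Over all genes tested, 13.2% were called higher and 12.7% lower. The part of these cells was not tested.

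**Figure D4:**
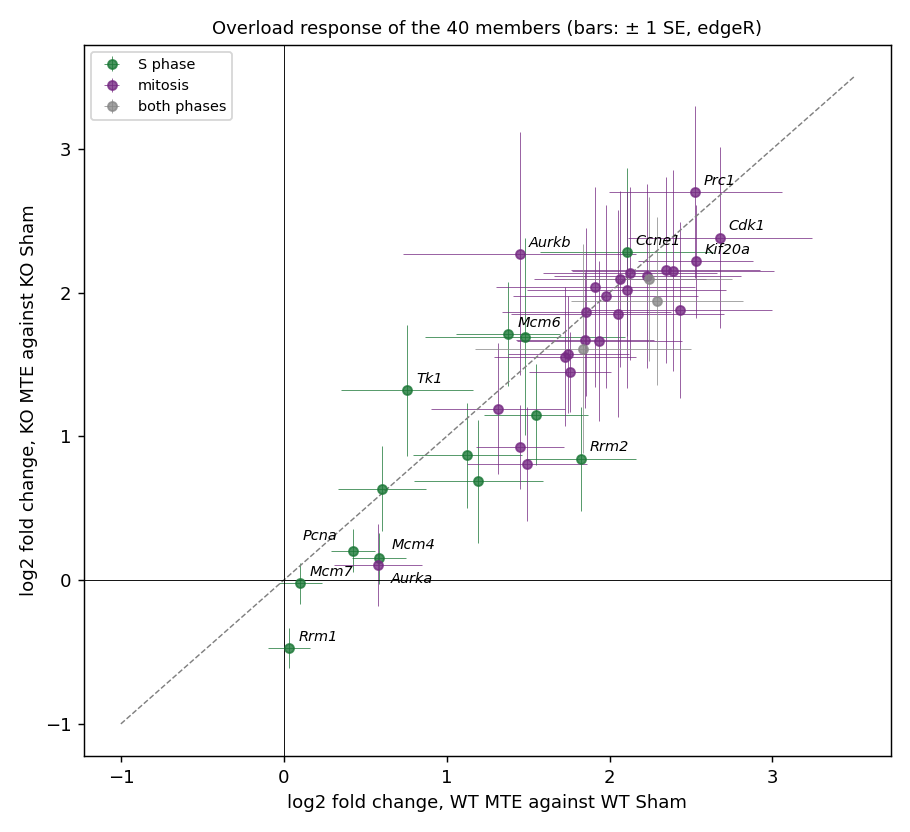
Log2 fold change of the 40 genes in WT overload (x axis) and KO overload (y axis), with bars of ± 1 SE from edgeR and a dashed line where both are equal. The mitosis genes lie at the upper right, and Rrm1, Mcm7, Pcna, Mcm4 and Aurka lie near 0 on at least 1 axis.

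Between genotypes under overload, most of the genes lay lower in KO, but no single gene passed the test in the fits made here. In KO MTE against WT MTE edgeR called 0 of the 40 members, where 1.21% of all genes tested were called higher and 0.256% lower, and 3 members had an unadjusted p under 0.05 (12.7% of all genes did). DESeq2, limma voom and limma voom with sample quality weights also called 0. The log2 fold change was below 0 for 37 of the 40 members, against 57.8% of all genes tested, and the median was -0.55 over the members and -0.06 over all genes. By class the median was -0.62 for mitosis (range -0.83 to 0.12) and -0.23 for S phase (range -0.50 to 0.56). The lowest adjusted p-values were those of Tpx2 (log2 fold change -0.73, SE 0.26, adjusted p = 0.236), Mcm4 (-0.42, SE 0.16, adjusted p = 0.280) and Anln (-0.61, SE 0.24, adjusted p = 0.296). The 3 genes above 0 were Ccne1 (0.56, SE 0.49), Aurka (0.12, SE 0.27) and Mcm6 (0.07, SE 0.31). Cdk1 was at -0.72 (SE 0.52) and Mki67 at -0.79 (SE 0.64). These errors leave room for a difference of either sign or none in most of the genes.

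The library WT MTE 1 bears on this comparison. It was the lowest WT MTE library for 25 of the 40 genes, and its mitosis level of 2.35 was close to the KO MTE levels of 2.32, 2.63, 2.17 and 2.31. All KO MTE libraries were below all WT MTE libraries for 3 members, Tyms, Plk1 and Kif4 (6.74% of all genes tested were so). Without WT MTE 1 this held for 23 members, 19 of them mitosis genes, against 10.9% of all genes, and the lowest adjusted p among the members was 0.135, still with 0 called. Leaving out any other MTE library gave 3 to 10 members. Leaving out a library can only keep or raise this count, and WT MTE 1 was the lowest of its group for most members. The rise to 23 is therefore a description of that library and not a test. Macrophage markers moved the same way, with all 14 log2 fold changes below 0, a summed level of 1014 to 1143 CPM in KO MTE against 1403 to 1806 CPM in WT MTE, and 0 called. All 12 fibroblast markers were also below 0 (7129 to 10830 against 5758 to 14830 CPM, 0 called), whereas 9 of 12 satellite cell and myoblast markers were above 0 (284.2 to 490.4 against 195.3 to 315.8 CPM, 0 called). Their part in the difference was not tested.

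**Figure D5:**
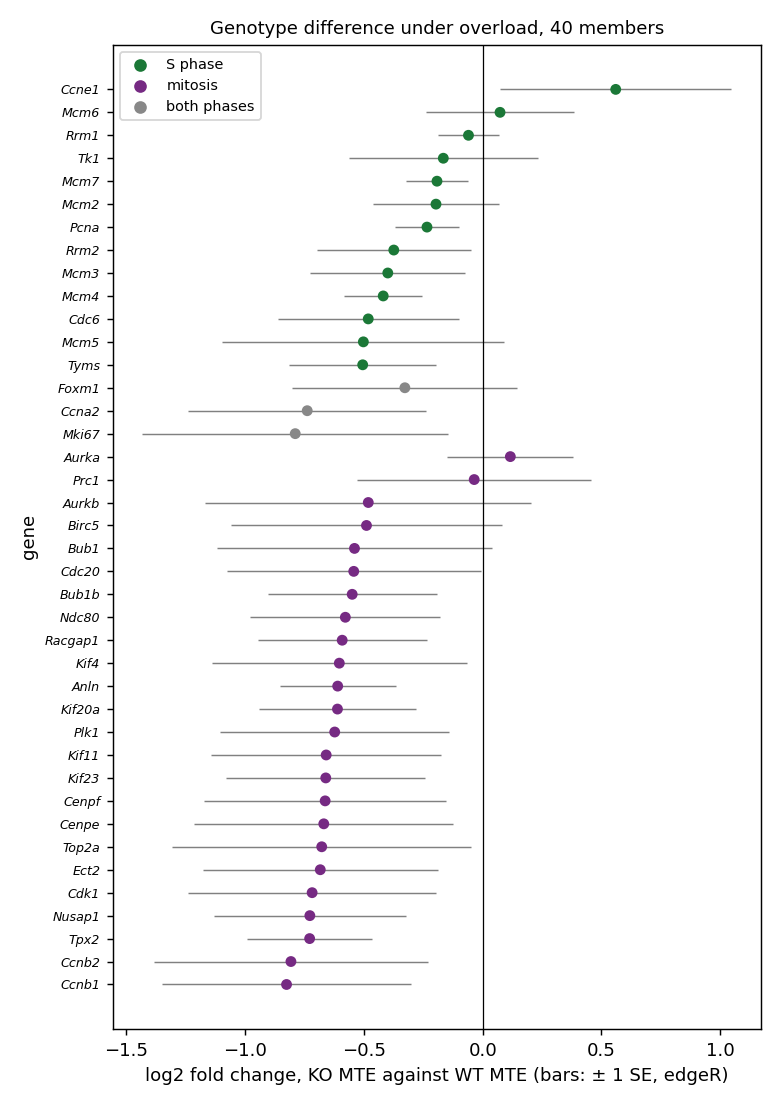
Log2 fold change of the 40 genes in KO MTE against WT MTE (points, coloured by class) with bars of ± 1 SE from edgeR. Of the 40 points, 37 lie left of 0, and those of Ccne1, Mcm6 and Aurka lie right of it.

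In Sham muscle, KO Sham against WT Sham, edgeR called 0 of the 40 members (0.331% of all genes tested were called higher and 0.18% lower), and DESeq2 and limma voom called 0. At an unadjusted p under 0.05 there was 1 member (10.8% of all genes passed), Rrm1, at 64.0 ± 9.25 CPM in KO (SD, n = 3) and 47.0 ± 6.11 CPM in WT (SD, n = 4), with a log2 fold change of 0.45 (SE 0.14, adjusted p = 0.245). The KO Sham values of Rrm1 lay above those of WT Sham (4.54% of all genes did so), but barely, with a lowest KO value of 54.3 CPM and a highest WT value of 54.27 CPM. The median log2 fold change of the members was -0.37, with 33 of 40 below 0 against 51.4% of all genes. It turned to 0.04 without WT Sham 1, and to 0.29 when KO Sham column 3 was left out as well. The direction of this difference therefore rests on the libraries included.

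The difference between the overload responses of KO and WT, tested as an interaction in edgeR, gave 0 calls among the 40 members and among all genes tested (0.0%), where 1 member and 605 genes (3.51%) had an unadjusted p under 0.05. That member was Rrm1 (interaction of -0.50 on the log2 scale, SE 0.19, adjusted p = 0.989). The most negative interaction of the 40 was that of Rrm2 (-0.98, SE 0.48, adjusted p = 0.989). DESeq2, limma voom and limma voom with sample quality weights called 0 members. The overload comparisons of WT and KO share no library, but each genotype comparison shares its groups with them, so the 4 sets of values are not independent.

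Outside the 40, the other replication and mitosis lists showed the same picture between the genotypes under overload, with 0 of 45 and 0 of 57 genes called and 37 and 56 log2 fold changes below 0. Replication-dependent histone genes typically make transcripts without a poly(A) tail, which total RNA libraries can hold. The 36 listed here were taken by their older names, and whether each is of this kind was not checked. They differed from these lists: 2 of 36 were called higher in KO MTE, where 1.21% of all genes tested were. Their median log2 fold change was only 0.04, with 21 above 0 and 15 below. H2bc6 was at 5.25 ± 1.61 CPM in WT MTE and 13.5 ± 3.66 CPM in KO MTE (SD, n = 4; log2 fold change 1.36, SE 0.24, adjusted p = 0.0120), and H2bc4 at 13.04 ± 0.695 and 20.7 ± 4.59 CPM (log2 fold change 0.67, SE 0.15, adjusted p = 0.0409). The summed level of the 36 genes was 108.4 to 152.4 CPM in WT MTE and 166.2 to 222 CPM in KO MTE, which did not overlap. With WT overload 1 histone gene rose (H2bc18, log2 fold change 1.27) and 1 fell (H2bc21, -0.77), and with KO overload 5 rose and 0 fell. Of all genes tested, 14.1% were called higher and 11.2% lower in WT, and 13.2% and 12.7% in KO. Histone genes are near-identical copies, so reads may be split between them and these values are uncertain.

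In the authors' deposited table, 32 of the 40 members had an FDR-adjusted p under 0.05 for KO MTE against KO Sham, as had 4940 of its 17217 genes, and 0 had one for KO Sham against WT Sham, as had 122 of all its genes. The 2-way analysis of variance in the authors' deposited table gave a p under 0.05 for surgery in 37 of the 40 and in 8960 of all genes, and for genotype in 0 of the 40 and in 2702 of all genes. For their interaction it gave one in 733 of all genes and in 1 of the 40, again Rrm1 (p = 0.0167, not adjusted, in the authors' deposited table).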

How the data were processed

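RNA-seq libraries came from total RNA depleted of ribosomal RNA with a stranded kit, per the labels' protocols. The submitters' processing notes name STAR, RSEM, edgeR and GRCm38, without version or role. The authors deposited expected counts per gene, estimated counts that need not be whole, of which 90.9% were within 0.01 of a whole number. They were rounded here. The count table held 15 columns for 16 labelled samples: KO Sham had 3 columns for 4 samples, called columns 1 to 3. The authors also deposited a table of log2 values, relative to the WT Sham mean after TMM scaling, with p-values and FDR. In it the FDR columns for WT MTE against WT Sham and for WT MTE against KO MTE were identical for all 17217 genes. Which comparison they belong to is not known, so neither was used as a result for either. The shared column had 3 of the 40 members under 0.05 (Ccnb1, Cdk1 and Mki67) and 1201 of all its genes.

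The planned test for counts was kept: edgeR 4.0.16 in R 4.3.3 (filterByExpr, TMM, robust glmQLFit and glmQLFTest) on all 15 libraries with 4 group means, in 5 comparisons, with Benjamini-Hochberg adjustment over 17212 genes and a threshold of 0.05. It was tested on simulated data. CPM are TMM-scaled, and log2 CPM used a prior count of 2. Alternatives used limma 3.58.1, DESeq2 1.42.0, other scalings and filters, and fewer libraries. Single genes had exact two-sided permutation tests, which cannot go below 0.0286 with 4 against 4 (70 arrangements) or 4 against 3 (35). Depth was 21081033 to 69187915 counts, and limits from 0 counts cover counting error only. No pair of libraries agreed within sampling noise (lowest chi-square per gene 36.5). Gene positions and older symbols of histone genes came from GENCODE M21 on GRCm38.

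The 40 members and all gene and marker lists were chosen with earlier results of these data known. All members are named with their WT overload log2 fold change. Library values are given for Mki67, Top2a, Cdk1, Pcna, Mcm2 and the 3 S phase and 4 mitosis members with the smallest adjusted p in WT overload, and in addition for Rrm1, chosen after its values were seen. Of each other list, the 3 called genes with the smallest adjusted p and the called genes between genotypes are named, with other members of a list for context.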

Additional observations from a re-analysis of the deposited data

Results flagged for a closer look

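In groups of 4 libraries, the gap of the highest or lowest library to its nearest neighbour was compared with the group's whole range for each of the 40 genes, for the S phase and mitosis levels and for the difference of these levels. Of 129 such groups tested on the log2 scale, 7 had a ratio above the 95% critical value of Dixon's test, and chance gives about 1 in 20. All 7 were single genes. WT MTE 1 was the low library in 3 of them: Bub1b, at 2.46 against 3.19 in the next library (ratio 0.837), Kif23, at 1.97 against 3.08 (ratio 0.849), and Ndc80, at 1.16 against 2.02 (ratio 0.917). Without WT MTE 1, members with all KO MTE libraries below all WT MTE libraries numbered 23, as given above, a count that leaving out a library can only keep or raise. In WT Sham, Mcm3 was high in library 1, at 3.30 against 2.01 (ratio 0.868), and Tpx2 was low in library 2, at 1.45 against 2.38 (ratio 0.846). Cdc6 was low in WT MTE 3, at 1.03 against 1.38 (ratio 0.914). Ect2 was high in KO MTE 2, at 2.25 against 1.86 (ratio 0.876).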

How the results depend on the processing

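The count of called members was 29 to 37 in WT overload and 25 to 30 in KO overload under RLE scaling, no filter, a filter of 1 CPM in 8 libraries, DESeq2, limma voom, voom with sample quality weights (added after seeing the data) and fits of only the 2 groups compared. With WT Sham 1 and KO Sham column 3 left out it was 37 in WT and 15 in KO. Leaving out 1 library gave 22 to 37 in WT, 4 to 30 in KO, and 0 to 0 in both genotype comparisons and the interaction. In WT, 28 members were called in all 7 other fits. The S phase minus mitosis median ran from -1.19 to -0.69 in WT and from -1.73 to -0.94 in KO when 1 library was left out. The log2 of summed CPM gave S phase differences of 0.595 in WT and 0.297 in KO, against 1.14 and 0.94 for the mean of log2 values. These causes were not tested.

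Among single genes in the overload comparisons and in KO MTE against WT MTE, the sign reversed for 4 values, none of them called. Rrm1 in WT overload was -0.032 with RLE and with DESeq2, -0.012 with quality weights, -0.0084 with only the 2 groups, -0.085 with WT Sham 1 and KO Sham column 3 left out, -0.085 without WT Sham 1 and -0.023 without WT MTE 2, and ran from -0.085 to 0.11 with 1 library left out. Mcm7 in KO overload was 0.13 without KO Sham column 1, 0.0011 without KO MTE 1 and 0.0029 without KO MTE 3, from a lowest of -0.0948. Aurka in KO overload was -0.017 with quality weights, -0.22 with WT Sham 1 and KO Sham column 3 left out, -0.21 without KO Sham column 3 and -0.0029 without KO MTE 2, up to a highest of 0.36. Mcm6 in KO MTE against WT MTE was -0.00091 without WT MTE 3 and -0.0076 without KO MTE 2, up to 0.19.

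The labels do not say whether replicate numbers pair the samples, and the values did not settle it. Same-numbered libraries correlated at -0.11 to 0.458 and differently numbered ones at -0.50 to 0.389. Most same-numbered values were positive, so a shared effect of the number is possible. Most of the others were negative, which adds nothing. The correlations are of deviations from group means, so positive same-numbered values push the others below 0. With the replicate block on the 12 numbered libraries, 36 members were called in WT overload, against 32 in the main fit. In KO MTE against WT MTE 0 were called, and the S phase minus mitosis median was -0.80 in WT. Comparisons with KO Sham could not be blocked, as its columns carry no sample number.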

Other observations

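Granulocyte genes, chosen after their values were seen, differed widely between the libraries of a group. Ngp, a granule protein gene of maturing neutrophils, lay at 6.46, 0.483, 50.6 and 196 CPM in WT Sham 1 to 4 while KO Sham columns 1 to 3 had 68.6, 9.99 and 0.674 CPM. After MTE, Ngp was at 33.7, 0.556, 0.925 and 71.6 CPM in the WT libraries 1 to 4 and at 0.835, 0.764, 0.142 and 0.121 CPM in the KO libraries 1 to 4. Mpo, the myeloperoxidase gene of their precursors, lay at 0.665, 0.0322, 2.60 and 4.49 CPM in WT Sham 1 to 4, and KO Sham columns 1 to 3 had 18.5, 0.127 and 0 CPM. It was 10.04, 0.150, 0.308 and 11.6 CPM in WT MTE 1 to 4 and 0.506 CPM or lower in KO MTE. Both were high in WT Sham 4 and KO Sham column 1, with mitosis levels of 1.37 and 1.46. Both were second highest of WT Sham in library 3, with a mitosis level of 0.16, and lower in library 1, with 1.76. Within WT MTE both were high in library 4, with a mitosis level of 3.05, and in library 1, which had the lowest mitosis level of its group (2.35).

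Cyclin-dependent kinase inhibitor p57 (Cdkn1c) had opposite signs of the overload log2 fold change in the genotypes, 0.54 in WT (adjusted p = 0.129) and -0.72 in KO (adjusted p = 0.0589), with an interaction of -1.26 (SE 0.36, adjusted p = 0.989 over all genes tested). Its level was 12.9 ± 3.40 CPM in WT Sham, 18.7 ± 5.66 CPM in WT MTE and 11.8 ± 2.63 CPM in KO MTE (SD, n = 4), and 19.5 ± 3.88 CPM in KO Sham (SD, n = 3). None of these tests passed the threshold, and the gene was singled out after its values were seen.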
